A study of Mus musculus with 15 samples.

Results

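The phagocyte NADPH oxidase was followed through 5 of its genes: Cybb, Cyba, Ncf1, Ncf4 and Rac2. They were picked by name from a table of 17030 mouse genes. The rule used no value, although earlier results of these data were known when the genes were chosen. All 5 were in the table, and all 5 were among the 11793 genes that passed the filter for testing, an FPKM of at least 1 in at least 3 of 15 libraries. FPKM is a level scaled by transcript length and library total. The study sequenced messenger RNA from 15 libraries of mouse bone marrow cells, 3 in each of 5 groups. Progenitor cells, Hoxb8 macrophages and BMDM (bone marrow-derived macrophages) were labelled WT and untreated. The CAR macrophages were labelled with CAR expression and CAR treatment, and control-CAR macrophages with Control-CAR expression and treatment. A chimeric antigen receptor (CAR) is a designed surface protein that couples recognition of a target antigen to signalling inside the cell. Hoxb8, a homeobox factor, is often expressed by force to keep myeloid progenitors immature and dividing. All groups share the label primary cell. The labels give no strain, age, antigen, construct promoter, time of treatment or number of clones, and they leave unsaid whether libraries of the same group derive from different cultures or animals. The p-values therefore measure only the spread between these libraries, which may be technical.

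The oxidase moves electrons from NADPH across a membrane onto oxygen and so makes superoxide, which phagocytes use against ingested microbes. Its catalytic core is a membrane pair, gp91phox (Cybb) with p22phox (Cyba). It is silent until cytosolic subunits, among them p47phox (Ncf1) and p40phox (Ncf4), join it together with a GTP-bound Rac protein, for which Rac2 is the form typical of blood cells. Loss of a core or cytosolic subunit causes chronic granulomatous disease, in which phagocytes fail to kill certain microbes.

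The libraries held 16962839 to 19221681 estimated counts. Their labels were set against marker lists. The macrophage list (8 genes, among them Adgre1, Csf1r and Lyz2) summed to 12466 to 13119 FPKM in Hoxb8 macrophages, 12020 to 12849 in control-CAR macrophages, 12584 to 13738 in BMDM, 5582 to 5739 in CAR macrophages and 207 to 228 in progenitors, where Mertk was at 0. The progenitor list summed to 2871 to 2926 in progenitors and to at most 274 elsewhere. Changes between groups are log2 ratios from edgeR's quasi-likelihood test with TMM scaling, and a gene is called at a Benjamini-Hochberg adjusted p under 0.05 over the 11793 genes. Most genes differed between most groups, so the share of all genes called is given for each comparison in which members are counted. The direction of small changes, and the size of larger ones, depended on the scaling. Between CAR and control-CAR macrophages, TMM gave 4946 genes higher and 4334 lower, library totals gave 6722 and 2770, and TPM gave 8003 and 1933. Library totals moved the median change of all genes by 0.31 in that comparison and by -0.74 between Hoxb8 macrophages and progenitors.

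Promoter sequence was at hand for 3 of the 5 genes, and it is shown because factors known to bind these promoters, PU.1 (of the ETS family) and interferon regulatory factors, were themselves measured below. The 250 bases before the RefSeq start of each gene (GRCm38.p6, all on the minus strand, printed 5′ to 3′ in the direction of the gene) are Cybb, chrX:9469325-9469574, Cyba, chr8:122432941-122433190, and Ncf1, chr5:134229626-134229875. Capitals mark matches, on either strand, to the interferon regulatory factor pattern (2 copies of GAAA separated by any 2 bases).
Cybb: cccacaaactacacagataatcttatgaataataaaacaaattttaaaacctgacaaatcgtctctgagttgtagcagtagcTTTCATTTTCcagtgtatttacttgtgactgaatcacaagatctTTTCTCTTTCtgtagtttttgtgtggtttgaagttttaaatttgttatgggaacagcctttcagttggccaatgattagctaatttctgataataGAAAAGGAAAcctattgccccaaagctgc
Cyba: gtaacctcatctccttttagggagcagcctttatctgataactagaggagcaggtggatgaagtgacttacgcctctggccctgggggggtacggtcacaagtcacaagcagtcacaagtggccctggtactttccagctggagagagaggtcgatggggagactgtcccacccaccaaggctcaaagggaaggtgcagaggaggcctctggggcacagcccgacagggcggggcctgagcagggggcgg
Ncf1: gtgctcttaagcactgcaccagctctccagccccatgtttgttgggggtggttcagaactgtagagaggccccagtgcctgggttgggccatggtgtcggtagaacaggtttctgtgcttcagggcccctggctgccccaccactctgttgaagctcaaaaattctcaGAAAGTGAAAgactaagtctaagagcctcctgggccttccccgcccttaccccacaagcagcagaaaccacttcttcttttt

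This pattern, the ETS core GAGGAA and the C/EBP pattern TTGCNNAA were searched on both strands from 250 bases before to 50 bases after each start. Cybb held 3 matches to the interferon regulatory factor pattern, and the one nearest the start lay at -29 to -20 and read GAAAAGGAAA. The other 2 were on the opposite strand, at -168 to -159 and -124 to -115. A match to the ETS core lay past the Cybb start, at 10 to 15, on the opposite strand. Ncf1 held 1 match to the interferon regulatory factor pattern, GAAAGTGAAA at -82 to -73. Cyba held none of the 3, and no gene held TTGCNNAA. Among 32851 promoter windows of the same length, 3.44% held the interferon regulatory factor pattern, 28.3% GAGGAA and 10.8% TTGCNNAA. These matches describe letters and not bound sites. The start used for Cybb lies inside the span annotated for the gene (chrX:9435252-9487766), so RefSeq also lists a start farther upstream. Ncf4 and Rac2, both on chromosome 15 (chr15:78244164-78262582 and chr15:78559169-78572783), are named without sequence.

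Cybb separated progenitors from every macrophage group. It had 0 counts in all 3 progenitor libraries and 8968 to 44344 counts in each of the 12 macrophage libraries. Its level was 255, 222 and 185 FPKM in the Hoxb8 macrophage libraries and 193, 221 and 224 FPKM in the control-CAR libraries. It was 113, 114 and 113 FPKM in the CAR libraries and 488, 533 and 518 FPKM in BMDM. The groups therefore stood in 4 steps with no overlap between them: none in progenitors, CAR lowest of the macrophages, Hoxb8 and control-CAR macrophages intermixed, and BMDM highest. Bounds were set with 0 counts taken as at most 3 per library and with TMM scaling. Cybb was then at least 10270-fold higher in Hoxb8 macrophages than in progenitors and at least 9641-fold higher in control-CAR macrophages. It was at least 4154-fold higher in CAR macrophages and at least 21269-fold higher in BMDM. In bulk RNA, fewer cells that express a gene and less of its RNA per cell cannot be told apart, and this holds for every level given here.

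Cyba, the partner of Cybb in the membrane, was already present in progenitors and was the highest of the 5 genes in all 15 libraries on the FPKM scale. It reached 347, 368 and 356 FPKM in progenitors and 2047, 1924 and 2169 FPKM in Hoxb8 macrophages. The control-CAR libraries had 2044, 2174 and 2023 FPKM, the CAR libraries 1967, 1921 and 2085 FPKM, and BMDM 1954, 1824 and 1842 FPKM. The 12 macrophage libraries lay in one band, far above the 3 progenitor libraries. The model placed Cyba 3.38 ± 0.070 (log2 ± SE) higher in Hoxb8 macrophages than in progenitors. By mean FPKM with 1 added, that change was 2.52, so its size depended on the scaling by more than the SE. Among the macrophages its order changed with the unit: control-CAR was highest by FPKM, Hoxb8 macrophages by TMM-scaled CPM (counts scaled to the size of the library) and CAR macrophages by TPM. The transcript length implied by its counts and FPKM also varied most among the 5 genes, by 7.88% from 436 to 471 bases.

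**Figure D1:**
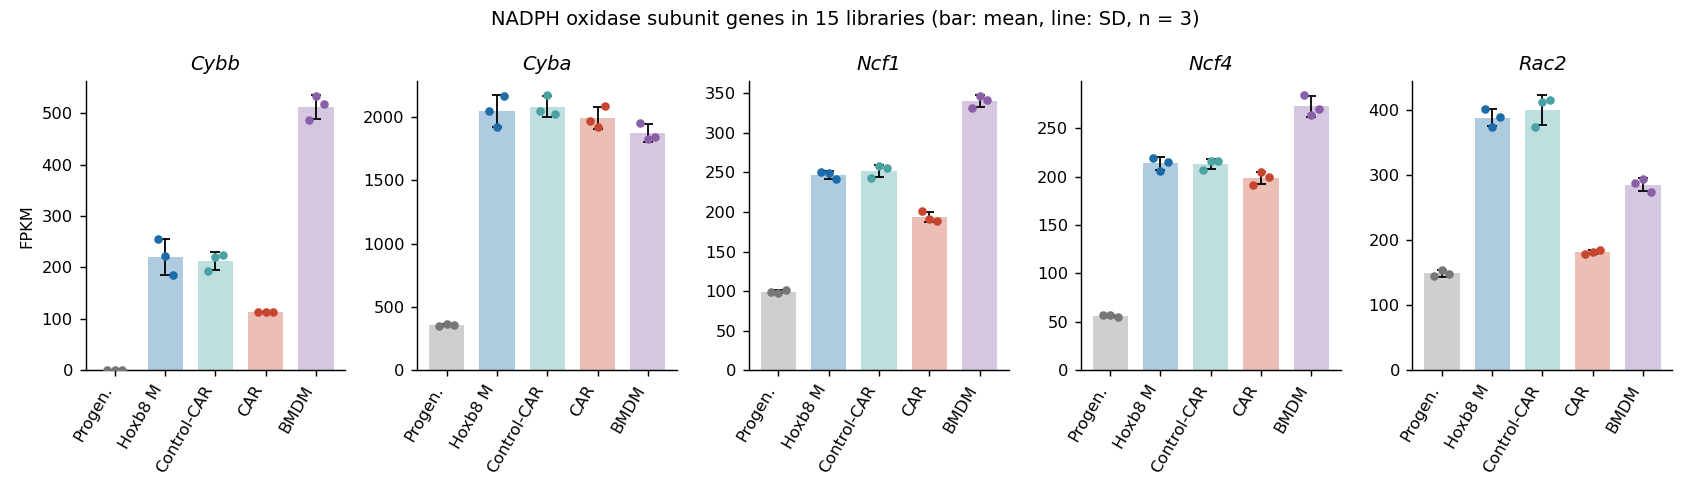
FPKM of the 5 oxidase genes in each library by group, with its own vertical axis for each gene. Points are libraries, bars the mean of 3 and lines the SD. Cybb is at 0 in progenitors, Cyba lies in one band across the 12 macrophage libraries, and Cybb, Ncf1 and Rac2 are lower in CAR than in control-CAR macrophages.

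Ncf1, whose product p47phox is the organiser that brings the cytosolic complex to the membrane once it is phosphorylated, was at 99.3, 97.2 and 102 FPKM in progenitors. Hoxb8 macrophages had 250.4, 249 and 241 FPKM, and control-CAR macrophages 243, 258 and 255 FPKM. CAR macrophages had 201, 191 and 189 FPKM, below every other macrophage library, and BMDM had 332, 347 and 342 FPKM, above every other library. Ncf1 rose by 2.14 ± 0.056 (log2 ± SE) from progenitors to Hoxb8 macrophages.

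Ncf4 encodes p40phox, which binds the phagosome lipid phosphatidylinositol 3-phosphate and sustains the oxidase there. It was at 57.2, 56.7 and 54.8 FPKM in progenitors and at 220, 206 and 215 FPKM in Hoxb8 macrophages. It stood at 207, 217 and 216 FPKM in control-CAR macrophages, 191.95, 204.48 and 199.99 FPKM in CAR macrophages, and 285, 264 and 270 FPKM in BMDM. The CAR libraries lay just under the control-CAR and Hoxb8 libraries, with no overlap, and BMDM stood above all. Ncf4 was 2.76 ± 0.062 higher on the log2 scale in Hoxb8 macrophages than in progenitors with TMM. The change was 1.91 in mean FPKM with 1 added.

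Rac2, the small GTPase of the complex, was lower in BMDM than in Hoxb8 and control-CAR macrophages, unlike Cybb, Ncf1 and Ncf4. It was at 145, 155 and 148 FPKM in progenitors and 401, 375 and 390 FPKM in Hoxb8 macrophages. Control-CAR macrophages had 374, 412 and 416 FPKM, whereas CAR macrophages had 179, 182 and 185 FPKM. BMDM, at 288, 295 and 274 FPKM, lay between them. CAR macrophages thus held Rac2 at a level nearer that of progenitors than that of any other macrophage group on the FPKM scale. It was still called higher in CAR macrophages than in progenitors, by 0.78 ± 0.065 on the log2 scale with TMM. The size of that change depended on the scaling, from 0.25 by TPM and 0.29 by FPKM to the TMM value, and it was called in all 7.

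Progenitors differed from macrophages in the same direction for every member. All 5 genes were called higher in Hoxb8 macrophages than in progenitors, where 44.7% of all genes were called higher. All 5 were also called higher in BMDM than in progenitors (46.6% of all genes) and in CAR macrophages than in progenitors (45.9% of all genes). For BMDM the changes with TMM were 3.09 for Cyba, 2.95 for Ncf4, 2.44 for Ncf1 and 1.61 for Rac2. In mean FPKM with 1 added, they were 2.39, 2.26, 1.77 and 0.93 in the same order. For CAR macrophages the changes with TMM were 2.98 for Cyba, 2.31 for Ncf4, 1.45 for Ncf1 and 0.78 for Rac2. In mean FPKM with 1 added, they were 2.48, 1.80, 0.96 and 0.29. The median change of the members, with Cybb at its lower bound, was 2.76 for Hoxb8 macrophages, 2.95 for BMDM and 2.31 for CAR macrophages. The median of all tested genes in those comparisons was 0.058, 0.098 and 0.073 with TMM. By log2(FPKM + 1) that median of all genes was -0.56, -0.48 and -0.35, so the background moved as well. These 3 comparisons share the progenitor libraries and are not independent.

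CAR against control-CAR is the contrast that the series names as its design. Cybb, Ncf1 and Rac2 were lower in CAR macrophages, and the drop was largest for Rac2 and Cybb. Rac2 fell by 1.44 ± 0.066 on the log2 scale (adjusted p = 4.7e-13, edgeR) and Cybb by 1.21 ± 0.098 (adjusted p = 7.1e-09, edgeR). Ncf1 fell by 0.69 ± 0.054 (adjusted p = 1.2e-09, edgeR). For each of these genes the 3 CAR libraries lay below the 3 control-CAR libraries in FPKM, and the call and direction held in all 7 scalings tried. Their smallest change over the scalings came by TPM, at -0.89 for Rac2, -0.66 for Cybb and -0.14 for Ncf1.

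Cyba and Ncf4 gave no direction that held across scalings. With TMM scaling Cyba was called lower by 0.36 ± 0.064 and Ncf4 by 0.39 ± 0.058. Cyba was not called with library totals (-0.05) and was called higher by TPM (0.18) and with quantile scaling (0.20), and its FPKM values overlapped between the groups. Ncf4 was not called with library totals (-0.08), was called lower with quantile scaling (-0.14) and higher by TPM (0.14). By TMM, then, 5 of 5 members were called lower, where 36.8% of all genes were called lower and 78.7% were called in either direction. Their median change was -0.69 and that of all tested genes 0.064. With library totals 3 of 5 were called, namely Cybb, Ncf1 and Rac2. In FPKM 4 of 5 members had CAR libraries wholly below the control-CAR libraries, which was so for 24.7% of all genes.

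**Figure D2:**
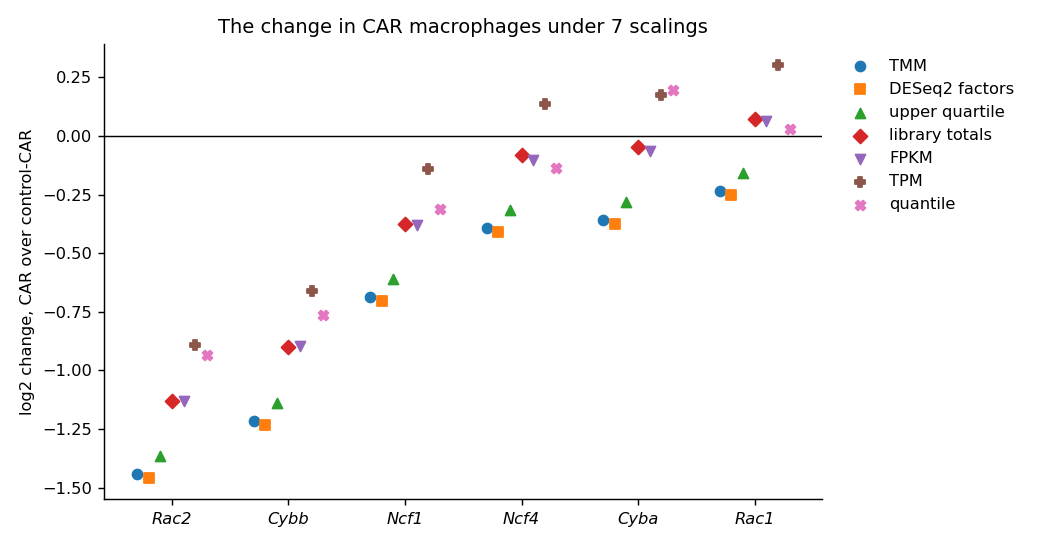
Log2 change between CAR and control-CAR macrophages of the 5 oxidase genes and Rac1 under 7 scalings. Each symbol is a scaling. Rac2, Cybb and Ncf1 are below 0 under each of the 7, and Ncf4, Cyba and Rac1 lie on either side of 0 depending on the scaling.

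Cell type markers differed between the same libraries. The macrophage list, summed over 8 genes, was 5582 to 5739 FPKM in CAR and 12020 to 12849 FPKM in control-CAR macrophages. Within it Lyz2 was at 612 against 5027 FPKM, Csf1r at 109 against 303 and Adgre1 at 811 against 1131. Itgam, Fcgr1 and Cd14 were lower in CAR macrophages as well. Cd68 overlapped between the groups (738 against 758 FPKM), and Mertk went the other way (0.423 against 0.09 FPKM). Neutrophils are also rich in the oxidase. The neutrophil list (10 genes) summed to 246 to 282 FPKM in CAR and 1846 to 2231 FPKM in control-CAR macrophages. None of its genes was at 0 in either group. Only Cxcr2 of that list had the higher mean in CAR macrophages (3.94 against 2.73 FPKM, with no overlap). The mast cell and basophil list (7 genes) summed to 3368 to 3585 FPKM in CAR macrophages, mostly Cpa3 (2221 FPKM) and Hdc (681 FPKM), and to 396 to 449 FPKM in control-CAR macrophages, where Mcpt4 was at 0. The eosinophil list (5 genes) summed to 856 to 899 FPKM in CAR and 147 to 233 FPKM in control-CAR macrophages. The CAR sum was mostly Prg2 (864 against 162 FPKM), and Siglecf went the other way (3.30 against 11.0 FPKM). The progenitor list (8 genes) summed to 161 to 175 FPKM in CAR and 13.4 to 15.5 FPKM in control-CAR macrophages, with Ctsg at 113 against 2.79 FPKM and Cd34 at 40.8 against 1.92 FPKM, and none of its genes was at 0 in either group. Only Flt3 of that list had the lower mean in CAR macrophages (0.00667 against 0.0267 FPKM). In the progenitor libraries, where Cybb had 0 counts, the progenitor list summed to 2871 to 2926 FPKM. The fibroblast list (7 genes) was at 46.5 to 47.6 against 1.95 to 2.76 FPKM, and Sparc was at 0 in control-CAR macrophages. Thy1 of that list went the other way (0.617 against 1.33 FPKM). The dendritic cell list (6 genes) was at 54.04 to 55.3 against 22.2 to 36.8 FPKM, with Cd209a at 0 in both groups. Zbtb46 (0.61 against 0.74 FPKM, with overlap) and Xcr1 (0.00667 against 0.0267 FPKM) had the lower mean in CAR macrophages. The B cell list (5 genes) stayed at or below 0.61 FPKM in both. The part of these differences in the oxidase result was not tested.

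Ratios within a library show the unequal change of the subunits without any scaling between libraries. The ratio of Cybb to Cyba, the membrane pair, was 0.0577, 0.0592 and 0.0543 in the CAR libraries and 0.0942, 0.101 and 0.111 in the control-CAR libraries. The groups did not overlap, and the control-CAR mean was 1.79 times the CAR mean. The ratio of Ncf1 to Ncf4 was 1.05, 0.935 and 0.946 in CAR and 1.17, 1.19 and 1.18 in control-CAR macrophages, again with no overlap. The ratio of Ncf4 to Cyba was 0.09999 ± 0.0057 in CAR and 0.103 ± 0.0038 in control-CAR macrophages (SD, n = 3), and these libraries overlapped (two-sided exact permutation p = 0.5, adjusted 0.54). With 3 libraries against 3, the smallest p this exact test allows is 0.1, so it could not pass 0.05 for any of the 49 ratio comparisons made.

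The balance of the Rac transcripts differed as well, with Rac2 above Rac1 in every macrophage library and below it in progenitors. Rac1, the ubiquitous relative that can replace Rac2 in some cells, was at 137 to 160 FPKM on average in every group, and its change between CAR and control-CAR macrophages went from -0.25 to 0.30 over the 7 scalings. The ratio of Rac2 to Rac1 was 1.27, 1.17 and 1.21 in the CAR libraries and 2.57, 2.90 and 2.94 in the control-CAR libraries. Hoxb8 macrophages had 2.96, 2.88 and 2.67, BMDM 1.95, 2.22 and 2.10, and progenitors 0.885, 0.973 and 0.930. CAR macrophages therefore fell between progenitors and BMDM, apart from both. The transcripts of Rac1 and Rac2 are related in sequence, and how the counting divided reads that match both is not given in the sources used here.

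**Figure D3:**
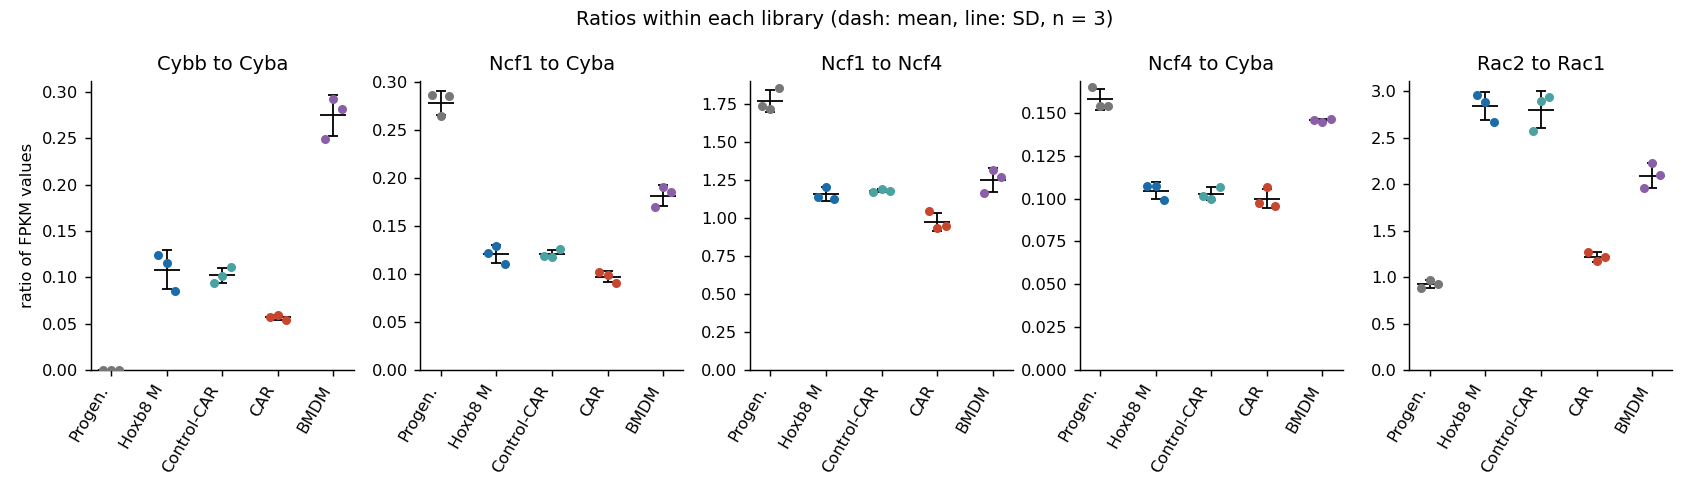
Ratio of FPKM between pairs of subunits within each library, by group, with an axis from 0 for each pair. Points are libraries, dashes the mean of 3 and lines the SD. Cybb to Cyba and Rac2 to Rac1 are lower in CAR than in control-CAR macrophages, and these groups overlap for Ncf4 to Cyba.

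Hoxb8 macrophages and BMDM, both untreated, differed in Cybb, Ncf1, Ncf4 and Rac2 under every scaling, though not in one direction, and in Cyba only under some. Cybb was lower in Hoxb8 macrophages by 1.05 ± 0.097 (log2 ± SE, adjusted p = 6.4e-08, edgeR), Ncf1 by 0.30 ± 0.053 and Ncf4 by 0.20 ± 0.057. These 3 genes were called lower, as were 38.3% of all genes. Rac2 was higher by 0.61 ± 0.065 (adjusted p = 1.3e-07, edgeR). Cyba was called higher by 0.28 ± 0.064 with TMM, but its FPKM values overlapped and the change was -0.05 by TPM. Of all genes, 32.0% were called higher. Within each library, the ratio of Cybb to Cyba was 0.125, 0.115 and 0.0852 in Hoxb8 macrophages and 0.249, 0.292 and 0.281 in BMDM, with no overlap.

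Markers moved here too. The neutrophil list summed to 1328 to 1602 FPKM in Hoxb8 macrophages and 5476 to 11768 FPKM in BMDM, led by S100a8 (882 against 4538 FPKM) and S100a9 (312 against 2988 FPKM). Of that list only Ly6g had the lower mean in BMDM (9.56 against 7.12 FPKM, with overlap). The B cell list summed to at most 0.18 FPKM in Hoxb8 macrophages, with Cd79b and Ms4a1 among the genes at 0, and to 28.7 to 52.8 FPKM in BMDM. The macrophage list was 12466 to 13119 FPKM against 12584 to 13738 FPKM, but its genes moved in both directions. Cd14 (4991 against 3021 FPKM) and Cd68 (771 against 507 FPKM) were higher in Hoxb8 macrophages. The others had lower means there, among them Itgam (305 against 730 FPKM). The progenitor list was at 12.4 to 15.2 against 155 to 274 FPKM, the dendritic cell list at 32.3 to 36.8 (Cd209a at 0) against 134 to 151 FPKM and the fibroblast list at 1.56 to 2.37 against 53.4 to 78.5 FPKM. The eosinophil list was at 104 to 172 against 245 to 386 FPKM. Siglecf of that list was higher in Hoxb8 macrophages (10.9 against 2.21 FPKM). Kit of the progenitor list also had the higher mean there (4.57 against 3.73 FPKM, with overlap). The mast cell and basophil list summed to 394 to 412 FPKM in Hoxb8 macrophages and 178 to 182 FPKM in BMDM. Its higher sum in Hoxb8 macrophages came mostly from Hdc (380 against 144 FPKM). Tpsb2 also had a higher mean there (3.84 against 1.73 FPKM, with overlap). The other genes of that list had lower means there, among them Cpa3 (20.1 against 25.6 FPKM, with overlap) and Ms4a2 (0.15 against 3.48 FPKM). Cma1 and Mcpt4 were at 0 in Hoxb8 macrophages. The part of these markers in the difference was not tested.

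Control-CAR and Hoxb8 macrophages were not told apart by any of the 5 genes. None was called with TMM, where 2.62% of all genes were called, and no unadjusted p was under 0.05 in edgeR. DESeq2 and limma likewise called none. The changes were -0.09 ± 0.097 for Cybb, -0.04 ± 0.064 for Cyba, -0.01 ± 0.053 for Ncf1, -0.05 ± 0.057 for Ncf4 and 0.00 ± 0.064 for Rac2 (log2 ± SE). The FPKM values of the 2 groups overlapped for every member, where 21.9% of all genes had no overlap. In both respects the members were like most genes in this comparison.

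CAR macrophages stood below BMDM for 4 of the 5 genes, and 37.8% of all genes were called lower. Cybb had the largest change, with a fall of 2.36 ± 0.10 on the log2 scale (adjusted p = 2.8e-12, edgeR). Ncf1 fell by 0.996 ± 0.054, Rac2 by 0.83 ± 0.065 and Ncf4 by 0.64 ± 0.057. Cyba was not called at -0.12 ± 0.064 (adjusted p = 0.098, edgeR), and its sign turned under library totals, FPKM, TPM (0.16, called) and quantile scaling (0.26, called). In this pair too the ratio of Cybb to Cyba did not overlap, with means of 0.0570 and 0.274. The marker lists differed widely between these libraries. The macrophage list summed to 5582 to 5739 FPKM in CAR macrophages and 12584 to 13738 FPKM in BMDM. The neutrophil list summed to 246 to 282 against 5476 to 11768 FPKM. Cd68 (738 against 507 FPKM) was higher in CAR macrophages. Cd14 (3169 against 3021 FPKM) and Ly6g (9.58 against 7.12 FPKM) also had the higher mean there, with overlap. The mast cell and basophil list was at 3368 to 3585 against 178 to 182 FPKM and the B cell list at 0.36 to 0.61 against 28.7 to 52.8 FPKM. The eosinophil list was at 856 to 899 against 245 to 386 FPKM. Its sum was mostly Prg2 (864 against 285 FPKM), and Epx went the other way (9.91 against 46.7 FPKM). The dendritic cell list was at 54.04 to 55.3 against 134 to 151 FPKM. The fibroblast list was at 46.5 to 47.6 against 53.4 to 78.5 FPKM, mostly Thy1 in BMDM (0.617 against 50.2 FPKM). Col1a2 (23.9 against 1.25 FPKM), Sparc (16.4 against 1.58 FPKM) and Pdgfra (0.78 against 0.0267 FPKM) were higher in CAR macrophages. The progenitor list overlapped, at 161 to 175 against 155 to 274 FPKM. Its Cd34 (40.8 against 9.31 FPKM), Ctsg (113 against 45.2 FPKM) and Kit (4.71 against 3.73 FPKM) were higher in CAR macrophages. The other genes of that list had lower means there. The part of these markers in the result was not tested.

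**Figure D4:**
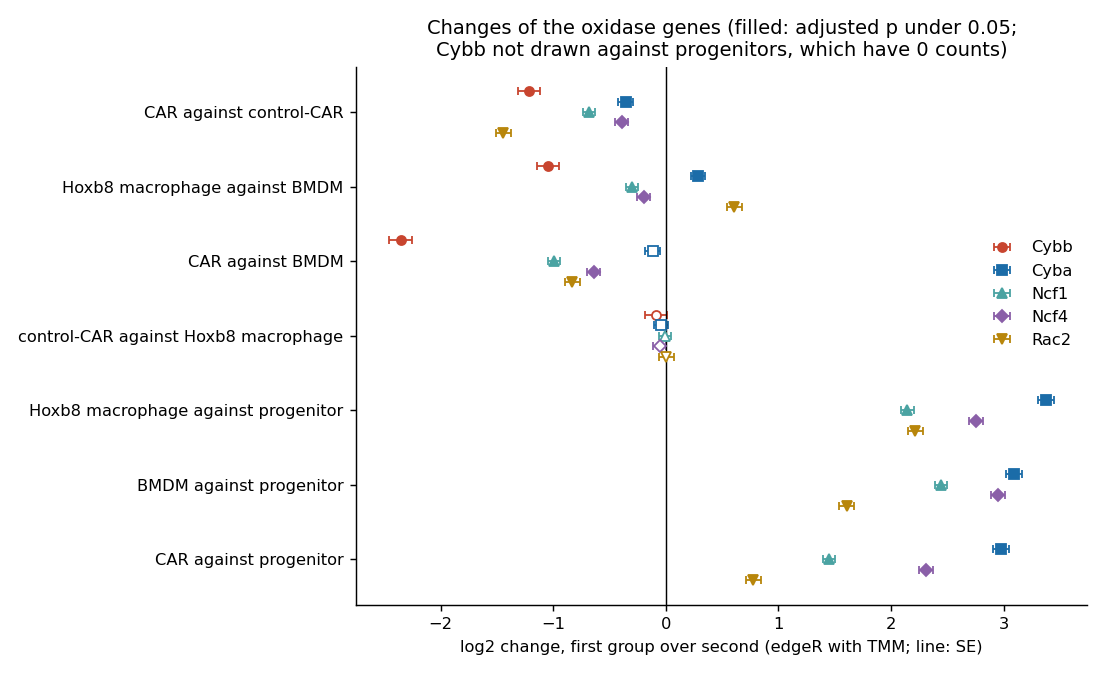
Log2 changes of the 5 oxidase genes in 7 comparisons from edgeR with TMM scaling, with SE lines. Filled symbols passed an adjusted p of 0.05 and open symbols did not. Cybb is not drawn against progenitors, which had 0 counts, and all 5 symbols are open for control-CAR against Hoxb8 macrophages.

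The order of the 5 groups by mean FPKM was the same for Cybb and Ncf4, from BMDM through Hoxb8, control-CAR and CAR macrophages to progenitors. Ncf1 differed from it only in that control-CAR and Hoxb8 macrophages changed places. Rac2 ran from control-CAR through Hoxb8 macrophages, BMDM and CAR macrophages to progenitors, and Cyba from control-CAR through Hoxb8, CAR and BMDM to progenitors. The neighbours Hoxb8 and control-CAR macrophages did not pass the test for any member, nor did CAR macrophages and BMDM for Cyba. All other neighbours did with TMM scaling, though not each step held across scalings. For Cyba, Hoxb8 and CAR macrophages passed with overlapping FPKM values, and CAR was highest by TPM. Ncf4 was higher in CAR than in control-CAR macrophages by TPM.

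The other genes around the oxidase were taken from 6 lists of 73 genes in all, of which 71 were in the table and 63 were tested. Between CAR and control-CAR macrophages 44 of the 63 were called lower and 14 higher, where 36.8% and 41.9% of all genes were. The same shares stand against each list below where TMM counts are given. Their median change was -0.53, also with 2 genes set at their lower bounds, against 0.064 for all tested genes. By TPM the count was 22 lower and 26 higher. Of all 11793 genes, 1933 were then called lower and 8003 higher, and these stand against the TPM counts below. The direction of the whole set thus depends on the scaling, and its background moves with it. In all 7 scalings, 22 were called lower and 11 higher. The share of all genes that held in all 7 scalings was not computed. Such counts, for the members and for each list, therefore stand without a background.

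Among 8 membrane and cytosolic partners, 6 were called lower and 0 higher (median -0.32), but 1 lower and 4 higher by TPM. Arhgdia and Arhgdib, inhibitors that hold GTPases such as Rac in the cytosol, were lower by 0.67 ± 0.076 and 0.59 ± 0.061 with TMM, and each was called in 6 of the 7 scalings. Cybc1, the chaperone that the membrane pair needs to mature, changed sign with the scaling, from -0.23 to 0.32. Of the 5 Rac family relatives, all 5 were called lower with TMM (median -0.66), 1 lower and 1 higher by TPM, and only Rhog lower in all scalings. The named members were Rac3, at 0.787 ± 0.25 against 1.25 ± 0.13 FPKM, Rhog, at 209 ± 11 against 290.2 ± 16 FPKM, and Cdc42, at 211 ± 6.3 against 270 ± 7.1 FPKM (SD, n = 3). Rhog and Cdc42 fell by 0.77 and 0.66 on the log2 scale with TMM.

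Kinases and exchange factors that act upstream of the oxidase were called lower in 18 of 22 cases and higher in 4 (median -0.67), and by TPM in 10 and 7. Of the TMM calls, 10 of the lower calls and 3 of the higher calls held in all 7 scalings. Pik3cg, the phosphoinositide 3-kinase that acts below chemoattractant receptors, was at 11.3 ± 0.38 FPKM in CAR and 32.7 ± 1.5 FPKM in control-CAR macrophages and fell by 1.89 ± 0.062. Fgr, a Src family kinase of myeloid cells, went from 4.33 ± 0.43 FPKM in control-CAR to 0.743 ± 0.13 FPKM in CAR macrophages. Protein kinase C genes, whose products phosphorylate p47phox, did not move together. Prkca rose from 0.230 ± 0.020 FPKM in control-CAR to 3.35 ± 0.29 FPKM in CAR macrophages. Prkcb and Prkcd, named after their values were seen, fell by 1.76 and 1.17 on the log2 scale, from 35.05 to 13.48 FPKM and from 260.5 to 142 FPKM.

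Other oxidases of the family were nearly absent. Of 9 genes listed 7 were in the table, and Noxo1, the organiser that replaces p47phox in epithelial oxidases, was the one tested. It was at 0.547 ± 0.14 FPKM in CAR and 2.11 ± 0.36 FPKM in control-CAR macrophages and fell by 2.25 ± 0.18 on the log2 scale. Nox1 was below the filter, at 0.650 to 0.700 FPKM in CAR libraries and at most 0.03 FPKM in every other library.

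Enzymes that use or remove superoxide and peroxide were called lower for 6 of 10 and higher for 3 (median -0.38). With library totals the count was 5 lower and 4 higher and by TPM 3 and 5, so the list gave no direction that held. In all 7 scalings, 3 were called lower and 1 higher. Prdx1, a peroxiredoxin, was at 1039 ± 21 FPKM in CAR and 2202 ± 130 FPKM in control-CAR macrophages, and catalase (Cat) at 75.4 ± 1.5 and 146 ± 5.4 FPKM. They fell by 1.38 and 1.26 on the log2 scale, and both calls held in all scalings. Myeloperoxidase (Mpo), which turns peroxide into hypochlorous acid, was barely present in either group, at 0.550 ± 0.095 FPKM in CAR and 0.08 to 0.12 FPKM in control-CAR macrophages. Its TMM change of 2.10 turned to -0.54 under quantile scaling.

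**Figure D5:**
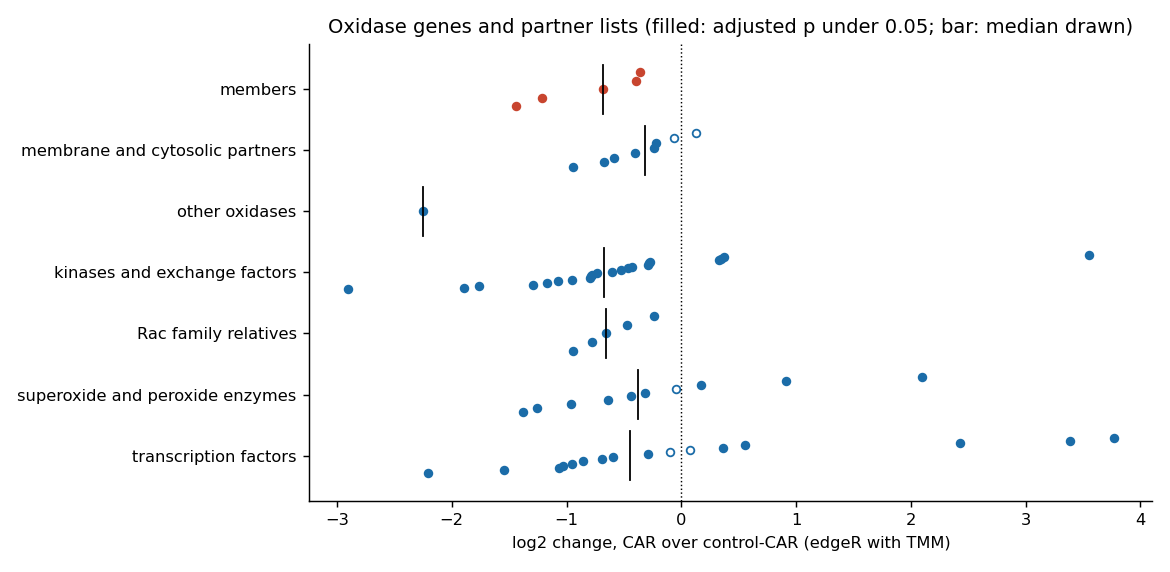
Log2 change between CAR and control-CAR macrophages (edgeR with TMM) of the 5 oxidase genes and the tested genes of 6 lists. Each point is a gene, filled where the adjusted p is under 0.05, and the bar is the median of the points drawn. Hoxa9 and Hoxa10, at 0 counts in control-CAR macrophages, are not drawn, so the bar for transcription factors lies below the median of all 18.

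Transcription factors tied to these genes split, with 9 of 18 called lower and 7 higher (median -0.19, also with Hoxa9 and Hoxa10 at their bounds), and 6 lower and 10 higher by TPM. Of the TMM calls, 6 of the lower and 7 of the higher calls held in all scalings. By the naming rule these were Hoxa9 and Hoxa10, homeobox factors studied as regulators of Cybb in immature myeloid cells, and Satb1, a chromatin organiser. Hoxa9 had 92 to 108 counts in CAR and 0 in control-CAR libraries, which makes it at least 26.5-fold higher, and Hoxa10 had 46 to 72 against 0, at least 16.2-fold higher. Neither would have passed the filter without the CAR libraries, so their calls as higher there were largely fixed by the filter. Both are included in the counts of higher calls above and carry no weight in them. Satb1 rose from 0.080 ± 0.026 to 1.43 ± 0.085 FPKM.

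Factors whose patterns were searched in the promoters are named after their values were seen. Spi1, which encodes PU.1, was at 100.3 ± 3.2 FPKM in CAR and 171 ± 9.7 FPKM in control-CAR macrophages and fell by 1.07 ± 0.071 on the log2 scale. Irf8, the interferon regulatory factor that partners PU.1 in macrophages, was at 8.18 ± 0.27 against 30.4 ± 1.9 FPKM and fell by 2.20 ± 0.088. Irf1 went the other way, at 368 ± 6.8 against 28.5 ± 1.6 FPKM, a rise of 3.39 ± 0.065. Cebpb, a C/EBP factor of macrophages, was at 365 ± 65 against 862 ± 55 FPKM and fell by 1.54 ± 0.10. All 4 of these calls held in the 7 scalings. Across the 4 macrophage groups, Spi1 (262 FPKM in BMDM, 171 in control-CAR, 151 in Hoxb8 and 100.3 in CAR macrophages) and Irf8 (73.3, 30.4, 34.9 and 8.18 FPKM in that order of groups) were, like Cybb, highest in BMDM and lowest in CAR macrophages. In progenitors Spi1 was at 130 FPKM and Irf8 at 2.37 FPKM, with Cybb at 0 counts. Cebpb was highest in control-CAR macrophages (862 FPKM, against 632 in BMDM) and Irf1 in CAR macrophages (368 FPKM), so neither followed Cybb. A link between any of these factors and the oxidase genes was not tested.

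The genes whose pattern over the 15 libraries was closest to each member were found by the root mean square difference of log2(FPKM + 1), after each gene was centred, among 8227 genes that reached a mean of 10 FPKM in at least 1 group. Cybb was nearest to Csf1r, which encodes the CSF1 receptor of macrophages (0.373), then Spp1 (0.488) and Socs3 (0.523). Csf1r was at 0.497 FPKM in progenitors, 296 in Hoxb8, 303 in control-CAR, 109 in CAR macrophages and 417 in BMDM. Ncf1 was nearest to Ifnar1 (0.0837) and Ncf4 to Syk (0.0738), the kinase that signals below Fc receptors. Cyba was nearest to Prr13 (0.103) and Rac2 to Fhl3 (0.116). Among the members themselves the closest pair was Ncf1 and Ncf4 (0.284), and Ncf1 ranked 99 among the genes nearest to Ncf4. Cybb was 2.27 or more from each of the others. That distance takes in the progenitor libraries, where Cybb was at 0 and the other members had means of 56.2 to 357 FPKM.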

How the data were processed

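Messenger RNA was sequenced from 15 libraries in 5 groups of 3, set by their titles. Total RNA was taken up in TRIzol and selected with oligo(dT), per the labels' protocols. HISAT2, Bowtie2, RSEM 1.3.1, DESeq2 1.4.5 and GRCm38.p6 are named by the submitters' processing notes, while the role of each, and whether counting used strand, is not given in the sources used here. Per the file headers, the authors deposited estimated counts with no normalisation. Their unit was read from the values, 94.4% to 96.0% of which were whole per library, and they were rounded. FPKM and TPM values also stood in the deposited table. FPKM divides by a transcript length that can differ between libraries, and TMM takes most genes as unaltered. Another 15 columns of averages were not used.

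Genes with an FPKM of at least 1 in at least 3 libraries were tested (11793, with 5237 left out) in 1 edgeR 4.0.16 quasi-likelihood model with a mean per group, TMM factors and two-sided tests in R 4.3.3. A count of 0 was taken as up to 3 counts per library, for counting error only. Alternatives used limma 3.58.1, DESeq2 1.42.0, other scalings, filters, only the 2 groups compared, a replicate block and each library left out. The scripts were tested on simulated data. The members and all lists were chosen with earlier results of these data known. Named from each list were up to 3 called genes with the largest change between CAR and control-CAR macrophages, and genes outside that rule are said to be chosen after their values were seen. Some single genes and 1 promoter pattern are counted or were searched but are not reported here. Ratios within libraries and the order by TPM were added after seeing the data. No 2 replicates differed by less than sampling noise, but the spread was unequal. It was 1.42 to 2.07 times sampling noise between CAR libraries, 2.97 to 15.3 times for control-CAR and 6.92 to 22.3 times for BMDM. Hoxb8 macrophages had 4.82 to 8.46 and progenitors 2.08 to 3.51. The model uses 1 spread per gene for all groups. Promoters are from RefSeq (GRCm38.p6).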

Additional observations from a re-analysis of the deposited data

How the results depend on the processing

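The number of members called was 5, 5, 5, 5, 4, 5 and 0 for CAR against control-CAR, Hoxb8 macrophages, BMDM and CAR macrophages each against progenitors, CAR against BMDM, Hoxb8 macrophages against BMDM, and control-CAR against Hoxb8 macrophages. Of all tested genes, 78.7%, 84.3%, 87.3%, 85.6%, 76.9%, 70.3% and 2.62% were called in either direction, in the same order. Counts of 4 or 5 of 5 are thus not particular to the members. With each library left out the member counts were the same (ranges 5 to 5, 4 to 4 and 0 to 0). Of the other settings, CAR against control-CAR had 3 called with library totals, log2(FPKM + 1) and log2(FPKM + 0.1). CAR against BMDM had 5 called with DESeq2's test, TPM and quantile scaling, and Hoxb8 macrophages against BMDM had 4 called with both FPKM pseudocounts, TPM and quantile scaling, each through Cyba. No other setting moved a count. The order of the 5 groups matched that by FPKM for 3 of 5 members by TMM-scaled CPM and for 3 of 5 by TPM.

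Of 630 member changes recomputed, 594 kept direction and call, 9 lost the call, 1 gained it and 26 changed sign. For Cyba, CAR against BMDM became 0.060 with library totals, 0.088 by log2(FPKM + 1) and log2(FPKM + 0.1), 0.16 by TPM and 0.26 with quantile scaling. CAR against control-CAR became 0.18 by TPM and 0.20 with quantile scaling for Cyba, and 0.14 by TPM for Ncf4. Hoxb8 macrophages against BMDM became -0.049 by TPM for Cyba. The other sign changes were in control-CAR against Hoxb8 macrophages, where no change was called. There Cyba became 0.025 with both FPKM pseudocounts, 0.038 by TPM and 0.011 with quantile scaling. Ncf1 became 0.023 with library totals, 0.030 with both FPKM pseudocounts, 0.043 by TPM, and ranged from -0.048 to 0.038 with each library left out (0.038 without control-CAR replicate 1). Ncf4 became 0.012 by TPM, and Cybb 0.026 without Hoxb8 macrophage replicate 1 (range -0.20 to 0.026). Rac2 became -0.0069 with upper-quartile factors, -0.0013 with DESeq2 factors and in DESeq2's test, -0.036 and -0.028 without control-CAR replicates 2 and 3, and -0.019 without Hoxb8 macrophage replicate 2 (range -0.036 to 0.075). The cause was not tested.

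Counts over the pathway lists moved by over 1.5 times by TPM between CAR and control-CAR macrophages, from 14 higher and 44 lower to 26 and 22. Between Hoxb8 macrophages and progenitors, 42 higher and 15 lower became 26 and 25 with library totals, 26 and 26 by log2(FPKM + 1), 21 and 36 by TPM and 23 lower with quantile scaling. For control-CAR against Hoxb8 macrophages, the 309 genes called over the whole table became 470 with library totals and 97 with only those 2 groups fitted. The replicate numbers did not pair the libraries, since no comparison had every same-number correlation above 0.1. With a replicate block the member counts were again 5, 5, 5, 5, 4, 5 and 0, and 9204 genes in place of 9280 were called between CAR and control-CAR macrophages. Depth limits the Cybb folds against progenitors, which rest on counts of 0 and are lower bounds.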

Other observations

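Between Hoxb8 macrophages and progenitors, 42 of the 63 tested genes around the oxidase were called higher and 15 lower, where 44.7% and 39.6% of all genes were. By TPM the count was 21 and 36, where 2540 of the 11793 genes were called higher and 7846 lower. Library totals gave 3123 higher and 7195 lower over all genes. All 8 membrane and cytosolic partners were called higher with TMM, but 2 higher and 3 lower with library totals and 1 higher and 6 lower by TPM. Cybc1, the chaperone of the membrane pair, was at 39.6 ± 2.9 FPKM in Hoxb8 macrophages and 29.8 ± 0.49 FPKM in progenitors (SD, n = 3). The genes in this paragraph were chosen after their values were seen. Prkcb, a protein kinase C, went from 0.857 ± 0.078 FPKM in progenitors to 35.2 ± 2.5 FPKM in Hoxb8 macrophages. Prkca was the reverse, at 4.79 FPKM in progenitors and 0.280 FPKM in Hoxb8 macrophages. Enzymes that handle superoxide and peroxide were called higher for 7 of 10 and lower for 2 with TMM, 5 and 4 with library totals, and 5 and 5 by TPM. Sod2, the mitochondrial superoxide dismutase, was at 366 ± 8.7 against 39.3 ± 2.2 FPKM, and Prdx1 at 2129 ± 189 against 146 ± 5.4 FPKM. Mpo was at 0.050 FPKM in Hoxb8 macrophages and 119 ± 12 FPKM in progenitors. Among transcription factors, Irf8 went from 2.37 to 34.9 FPKM and Cebpb from 33.1 to 841 FPKM, whereas Cebpa went from 197 to 6.84 FPKM and Meis1 from 37.8 to 0.740 FPKM.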
